A study of Mus musculus with 12 samples.

Results

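The comparison described here is that of immune complex (IC) with ovalbumin (Ova) in macrophages that received no inhibitor. It took the 6 libraries treated with the solvent DMSO, 3 with IC and 3 with Ova, out of 12 libraries in the series, and all genes of the count table that passed a filter on low counts (11468 of 24421). The cells were bone marrow-derived macrophages (BMDMs) of C57BL/6 wild-type mice, grown from marrow over 5 days with 100 ng/mL of the growth factor M-CSF, the medium being replaced on day 3. They were then held for 4 hours with Ova or with Ova opsonized by polyclonal rabbit anti-ovalbumin IgG, with DMSO in both groups. The sample records put the DMSO at 5%. The study's methods give 5% DMSO only for the drug injected into mice, and for culture a stock in DMSO that was diluted, so the level in these cultures is uncertain. Each group held 1 library from each of 3 mice (A, B and C), so every IC library has an Ova library of the same animal. The other 6 libraries, from the same mice with I-BET151 at 5.0 µM (iBET, a compound that keeps BET proteins off acetylated histones) in place of DMSO, entered the fit only for the estimate of spread and for a test of whether responses differed between arms. The Ova group held no antibody, so an effect of rabbit IgG and an effect of its binding into complexes cannot be told apart. The cells are a culture of mixed macrophages rather than 1 sorted subset, and in such a bulk measurement fewer cells of a type and less RNA per cell cannot be told apart.

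Macrophages bind IgG complexes through Fc gamma receptors. The activating receptors Fcgr1, Fcgr3 and Fcgr4 signal through the common gamma chain Fcer1g, whose phosphorylated motif recruits the kinase Syk, while Fcgr2b carries an inhibitory motif. Downstream, the Card9, Bcl10 and Malt1 module releases NF-kB, the factor of many cytokine and chemokine genes, and NF-kB in turn induces its own inhibitors, among them IkB alpha (Nfkbia) and A20 (Tnfaip3). Crosslinked receptors also activate PI3 kinase and Akt, which keep FoxO factors, the drivers of many genes of resting and starved cells, out of the nucleus. This is textbook background and not a result of these data.

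Total counts per DMSO library lay between 7.58 M and 11.4 M. The Ova library of mouse A stood apart, since 77.4% of its counts fell on the ribosomal precursor Rn45s and 1.77 M counts were left for all other genes, against 7.28 M to 10.5 M in the other 5 DMSO libraries, where Rn45s took 1.41% to 7.83%. Rn45s had a fitted log2 fold change of -4.48 with this library and 1.31 without it, and Lars2 one of -5.36 with it and 2.08 without it, and neither was called. A count of 0 in the Ova library of mouse A allows up to 1.54 CPM (counts relative to the TMM-scaled library total), while in the other 5 it allows 0.23 to 0.33 CPM (3 counts, counting error only). Where counts are given below in place of CPM, they are not scaled for depth. The scaled total was 1.95 M in that library and 9.09 M to 13 M in the other 5, so its counts read low. All 13 macrophage markers checked were present, with a summed level of 9180 to 11300 CPM (of counts outside Rn45s) in Ova and 8780 to 10700 CPM in IC, and none was called. Neutrophil markers summed to 9.05 to 51.7 CPM in Ova and 10.9 to 42.8 CPM in IC, with mice keeping their order in both groups, and osteoclast markers to 22.1 to 32.7 and 26.1 to 45.5 CPM. Markers of dendritic, T or NK, B, mast, erythroid and stromal cells summed to at most 3.39 CPM in any of the 6 libraries, with Cd3e and Fcer1a at 0 counts in all of them.

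IC changed transcripts at 4 hours, in a number that depended on the fit. Genes of NF-kB feedback, neutrophil chemokines and inflammatory metabolism were among those that rose, and genes linked to FoxO and to quiescence among those that fell. Of 11468 genes tested, 140 were called at an adjusted p under 0.05 (1.22%), of which 84 were higher with IC (0.732%) and 56 lower (0.488%). The rises were the larger changes, with a median log2 fold change of 0.87 against -0.70 for the falls and 36 genes of at least 2-fold against 9. In each of the 140 genes the 3 IC libraries lay entirely on 1 side of the 3 Ova libraries, which fixes the direction in each mouse. Across all genes tested, 7.8% had the 3 IC libraries above the 3 Ova libraries and 7.47% had them below, so this separation by itself is common. The median change of the 84 genes was 0.91 in mouse A, 0.95 in mouse B and 0.81 in mouse C, and that of the 56 genes was -0.76, -0.70 and -0.67. These genes were called from the same libraries, so the agreement between mice follows in part from that choice. The median over all genes tested was -0.01, and 11.7% of them had an unadjusted p under 0.05. The gene lists below were chosen with earlier results of these data known. Their shares and medians therefore describe the members beside the shares of all genes, and do not test a theme. Of the called genes, 24 of the 84 and 14 of the 56 overlapped an exon on the opposite strand, Jdp2, Gpr84, Kdm6b, Icam1, Slc7a2, Acsl1, Cd274, Gnl3 and Txnip among them, and reads of such partners cannot be told apart if strand was not used in counting.

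**Figure D1:**
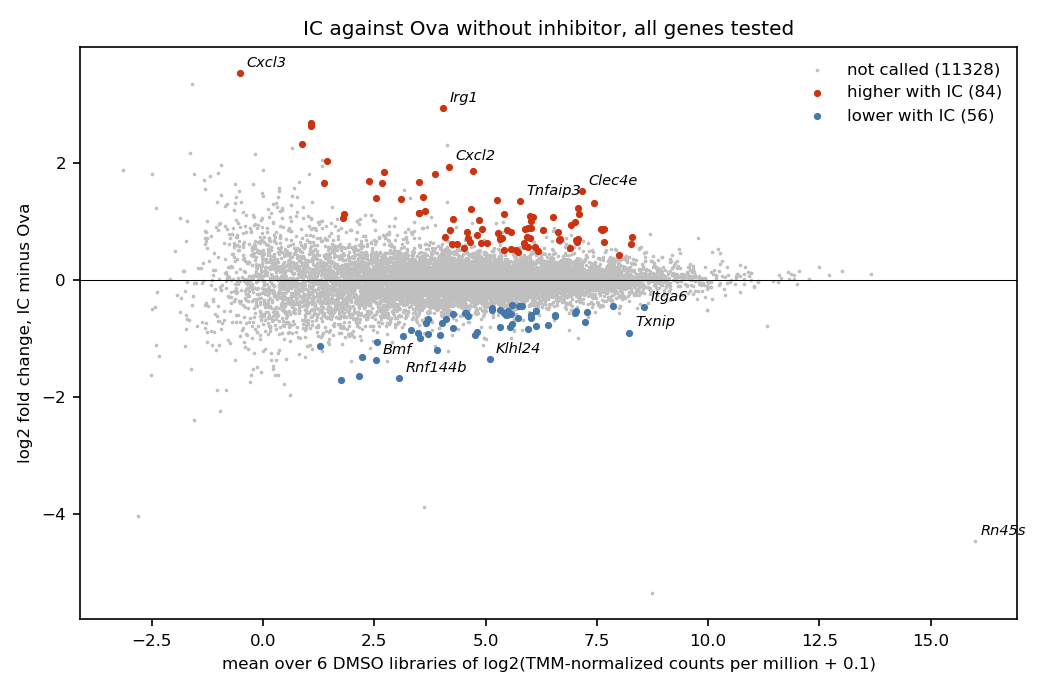
Each point is 1 of the 11468 genes tested, with its mean level over the 6 DMSO libraries on the x axis, as log2(CPM + 0.1), and its log2 fold change (IC minus Ova) on the y axis. Red points are the 84 genes called higher with IC and blue points the 56 called lower, and Rn45s at the lower right takes its value from the Ova library of mouse A.

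The number of genes called depended on whether mouse was a term of the fit and on which mice entered it. With mouse as a block in the 12-library fit, 315 genes were called (2.75%), 169 higher (1.47%) and 146 lower (1.27%), and the 140 were all among them. With the 6 DMSO libraries fitted alone, 829 of 11141 genes were called with the block (7.44%) and 5 without it. Without mouse B, 0 genes passed in edgeR, where an unadjusted p under 0.05 was reached by 600, and without mouse C 10 passed. Without mouse A, whose Ova library is the shallow one, 159 genes passed, 101 of them among the 140. Leaving out that library alone gave 123 genes of 11667 (1.05%), of which 100 were among the 140, and the 140 kept their direction in every fit that tested them. DESeq2, with no block, called 266 (2.32%). The limma fit with sample weights gave the DMSO libraries of mouse A the lowest weights of the 12, 0.489 for Ova and 0.267 for IC.

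**Figure D2:**
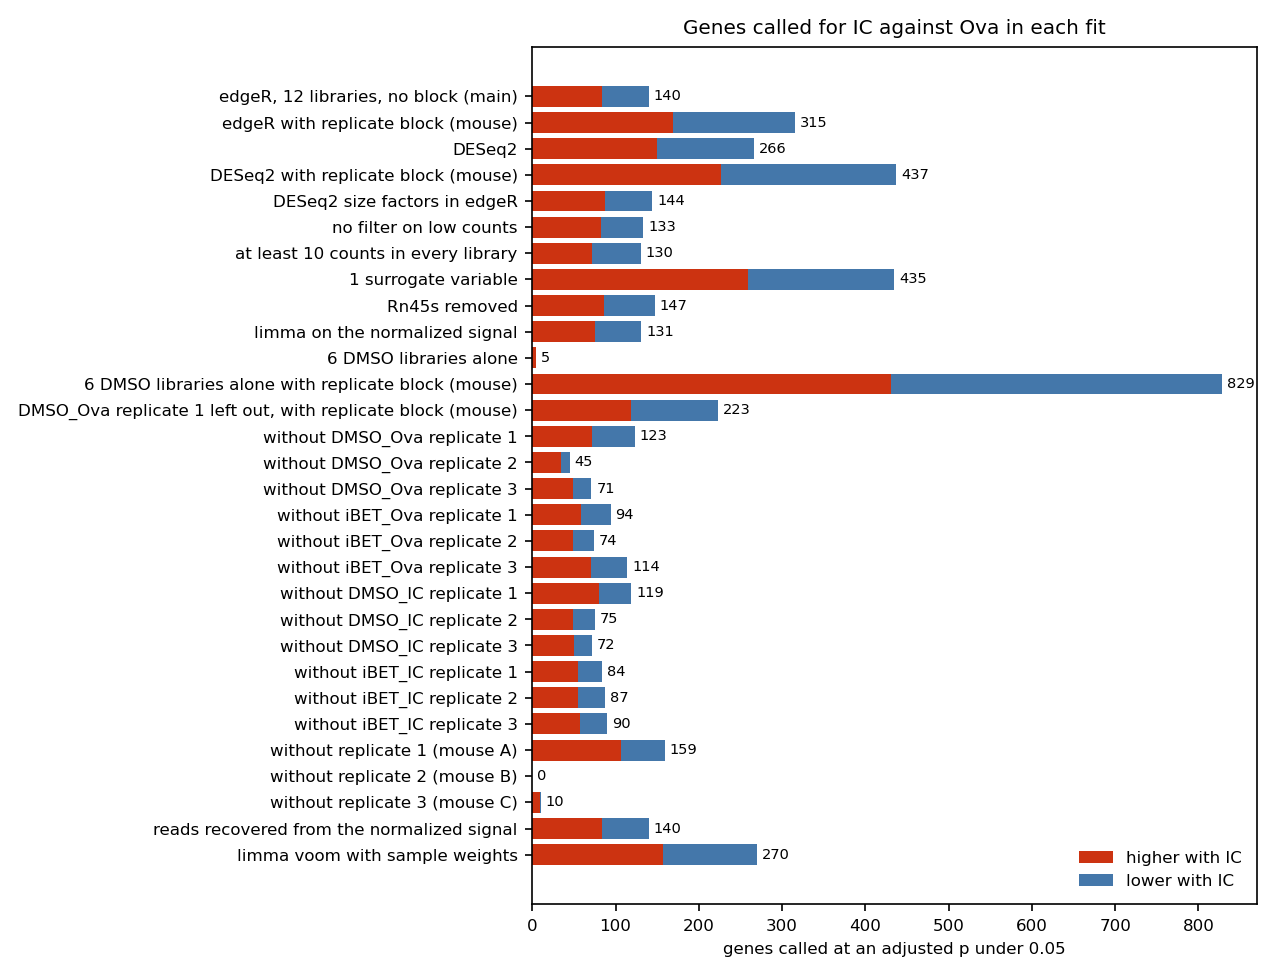
The bars give, for each fit, the number of genes called for IC against Ova at an adjusted p under 0.05, split into higher and lower with IC, and replicates 1, 2 and 3 are mice A, B and C. The counts run from 0 without mouse B to 829 when the 6 DMSO libraries are fitted alone with mouse as a block.

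The neutrophil-attracting chemokines of the Cxcl1 to Cxcl3 cluster gave some of the largest rises. Cxcl2 was at 7.7, 9.28 and 10.4 CPM in the Ova libraries of mice A, B and C and at 36.8, 39.4 and 32.7 CPM in the IC libraries. The lowest IC value was more than 3 times the highest Ova value, and the mice within a group were close to one another. The log2 fold change was 1.94 (SE 0.22, edgeR adjusted p 0.00142). Cxcl3 had 0, 2 and 3 counts in Ova and 25, 21 and 25 in IC, and its log2 fold change of 3.54 (SE 0.52, edgeR adjusted p 0.00552) was lost without the Ova library of mouse B (adjusted p 0.0768). It was a gene at the edge of detection in Ova and clearly detected in each IC library. Cxcl1 was at 2.05, 0.92 and 1.16 CPM in Ova and at 5.47, 3.96 and 3.91 CPM in IC, also without overlap, and in edgeR it was called with the block and not without it (adjusted p 0.0384 and 0.0948, DESeq2 adjusted p 0.0204 without a block).

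Of 24 chemokines listed, 17 passed the filter. Of these, 2 (Cxcl3 and Cxcl2) were higher and 0 lower, against 1.22% of all genes tested called. The median of the 17 was 0.61, against -0.01 for all genes tested. With the block 7 were higher, against 2.75% of all genes tested called. The others were Cxcl1, Cxcl10, Ccl7, Ccl4 and Ccl3, ligands for receptors of monocytes and lymphocytes as well as neutrophils. Ccl3 was at 13.9, 11 and 15.1 CPM in Ova and 24.3, 19.9 and 26.7 CPM in IC. Ccl7 was at 18.5, 14.3 and 24.2 CPM in Ova and 38.6, 23.8 and 50.3 CPM in IC, so the groups overlapped although each mouse was higher with IC. Cxcl10 showed the same pattern, at 4.62, 5.44 and 13.8 CPM in Ova and 12.4, 9.57 and 29.6 CPM in IC. In both genes mouse C was the highest in either group, and the spread between mice was as large as the difference between stimulations.

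The promoters of the strongest rising genes were read to show the letters that an NF-kB dimer binds. RefSeq windows from 250 bases before to 50 bases after a transcript start (GRCm38.p6) were found for 8927 of the 11468 genes, and searched on both strands for GGGANTTTC or GGAANTTCC, which can overlap by all but 1 base. The letters were present in 2.46% of those genes, in 9 of the 75 genes called higher that had a window (12.0%), in 0 of the 45 called lower, and in 5 of 12 chemokines (41.7%). Among the rising genes named here, 8 of those with a window held them (Cxcl3, Irg1, Cxcl2, Gpr84, Tnfaip3, Icam1, Nfkbia and Nfkb2). The windows of the 3 with the largest rise are printed 5′ to 3′ with these letters in capitals:
Cxcl3 (chr5:90785851-90786150, plus strand): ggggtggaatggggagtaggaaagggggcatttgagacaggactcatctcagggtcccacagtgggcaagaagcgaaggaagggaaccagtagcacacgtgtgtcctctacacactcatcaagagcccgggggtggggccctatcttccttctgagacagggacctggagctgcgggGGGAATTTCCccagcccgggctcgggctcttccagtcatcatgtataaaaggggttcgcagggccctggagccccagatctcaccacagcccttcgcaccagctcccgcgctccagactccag
Irg1 (chr14:103046762-103047061, plus strand): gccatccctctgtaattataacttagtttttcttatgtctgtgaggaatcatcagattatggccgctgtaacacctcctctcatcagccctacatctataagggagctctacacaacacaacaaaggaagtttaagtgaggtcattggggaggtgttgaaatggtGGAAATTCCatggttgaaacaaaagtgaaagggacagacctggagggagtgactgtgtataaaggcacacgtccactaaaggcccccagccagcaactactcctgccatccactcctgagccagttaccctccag
Cxcl2 (chr5:90903649-90903948, plus strand): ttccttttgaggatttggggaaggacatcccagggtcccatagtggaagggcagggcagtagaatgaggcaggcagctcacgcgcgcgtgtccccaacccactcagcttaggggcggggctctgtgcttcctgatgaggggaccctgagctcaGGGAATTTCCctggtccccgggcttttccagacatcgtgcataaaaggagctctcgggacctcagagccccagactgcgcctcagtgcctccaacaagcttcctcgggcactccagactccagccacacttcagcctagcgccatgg
Cxcl3 and Cxcl2 held the same pair of overlapping matches, from -73 to -64 and from -97 to -88 relative to the start, and in Irg1 the match lay at -85 to -77. A letter match is a description of the window, and no binding was measured here. The letters TGANTCA, which AP-1 binds, were in 10.7% of the promoters of genes called higher, 13.3% of those called lower and 6.0% of all, and those of the TATA box (TATAAA) in 21.3%, 13.3% and 8.37%.

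Irg1 (annotated as Acod1, which makes itaconate from a citrate cycle intermediate) had the largest change among called genes with a mean of at least 50 counts. It was at 3.08, 5.67 and 8.95 CPM in Ova and at 39.1, 45.8 and 66.9 CPM in IC. Mouse C was the highest in both groups and mouse A the lowest, and the groups were far apart. The log2 fold change was 2.94 (SE 0.31, edgeR adjusted p 0.00137), a 7.7-fold rise. Other enzymes and transporters of inflammatory metabolism rose with it. Slc7a11, the cystine importer that feeds glutathione synthesis, was at 3.08, 2.38 and 3.23 CPM in Ova and 6.56, 11.3 and 9.82 CPM in IC (1.69, SE 0.34, edgeR adjusted p 0.0331), and its call did not hold when the shallow Ova library of mouse A was left out (adjusted p 0.0552). Slc7a2, a carrier of arginine, was at 13.9, 19.5 and 16.6 CPM in Ova and at 39, 43.4 and 35.9 CPM in IC. The arginine and cystine carriers thus each reached more than double their Ova level in every mouse.

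The inflammatory metabolism list had a median of 0.32. Of its 28 members that passed the filter, 7 were higher and 0 lower, against 1.22% of all genes tested called. Besides those above they included Ptges, the last enzyme of prostaglandin E2 synthesis (0, 18 and 15 counts in Ova, 80, 81 and 76 in IC). The 0 was in the shallow library. The others were Acsl1, which loads fatty acids onto coenzyme A (log2 fold change 1.08), the mitochondrial superoxide dismutase Sod2 (0.89) and the glycolytic hexokinase Hk2 (0.57). Sod2 had the smallest spread of these, at 48.8, 45.7 and 48.2 CPM in Ova and 84.4, 91.8 and 87.2 CPM in IC (edgeR adjusted p 0.000676). Ptgs2, the inducible cyclooxygenase, was at 1.03, 3.37 and 4.64 CPM in Ova and at 5.98, 11.1 and 16.6 CPM in IC. The groups did not overlap, and edgeR called it with the block and not without it (adjusted p 0.00234 and 0.0853, DESeq2 adjusted p 0.0051 without a block). Odc1, the first enzyme of polyamine synthesis, showed the same pattern (edgeR adjusted p 0.0806 without the block and 0.00712 with it, DESeq2 adjusted p 0.0155 without it). Ptgs1, the constitutive cyclooxygenase, had the lowest value of the list (-0.84, SE 0.25, edgeR adjusted p 0.149). Nos2 had 0 counts in all Ova libraries and 1, 0 and 2 in IC, too few to be tested.

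Inhibitors of NF-kB formed the list with one of the highest shares of called members. Tnfaip3 (A20, which trims ubiquitin chains from the adaptors of this pathway) was at 33.9, 34.1 and 35.2 CPM in Ova and at 78.5, 97.5 and 86.6 CPM in IC. The 3 Ova libraries agreed closely, the shallow one included, and each IC library was more than double. The log2 fold change was 1.34 (SE 0.13, edgeR adjusted p 0.000676). Nfkbia, which holds NF-kB in the cytoplasm, was at 79.6, 88.3 and 110 CPM in Ova and at 198, 222 and 194 CPM in IC (1.13, SE 0.14, edgeR adjusted p 0.00207). Nfkbie, a relative of Nfkbia, and Tnip1, a partner of A20, rose by 0.90 and 0.88. Of the 18 members, all tested, 4 were higher, 0 lower and 14 not called, against 1.22% of all genes tested called. The median of the 18 was 0.37, and 13 had an unadjusted p under 0.05 (11.7% of all genes tested had one). With the block Nfkbib was added, with a log2 fold change of 0.66.

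Among the subunits, kinases and adaptors of NF-kB, Traf1, Relb, Ikbke, Birc3 and Nfkb2 rose. Traf1, an adaptor of TNF family receptors, was at 18.5, 23.8 and 28.7 CPM in Ova and at 61.1, 63.9 and 63.5 CPM in IC (1.37, SE 0.15, edgeR adjusted p 0.00142). The IC libraries were nearly level, while the Ova libraries differed between mice. Relb and Nfkb2, which form the noncanonical dimer, had log2 fold changes of 0.83 and 0.71, the kinase Ikbke 0.83, and the ubiquitin ligase Birc3 0.72. Of 23 members 5 were higher, 0 lower and 18 not called, against 1.22% of all genes tested called. The median of the 23 was 0.19 and the range -0.27 to 1.37. Nfkb1, the precursor of p50, was at 76.5, 72.1 and 85 CPM in Ova and at 99.4, 95.7 and 113 CPM in IC, a separation of small size that was not called (0.40, SE 0.11, edgeR adjusted p 0.118). Without the Ova library of mouse A, 3 members were called, and Relb (adjusted p 0.0994) and Nfkb2 (adjusted p 0.111) were not.

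**Figure D3:**
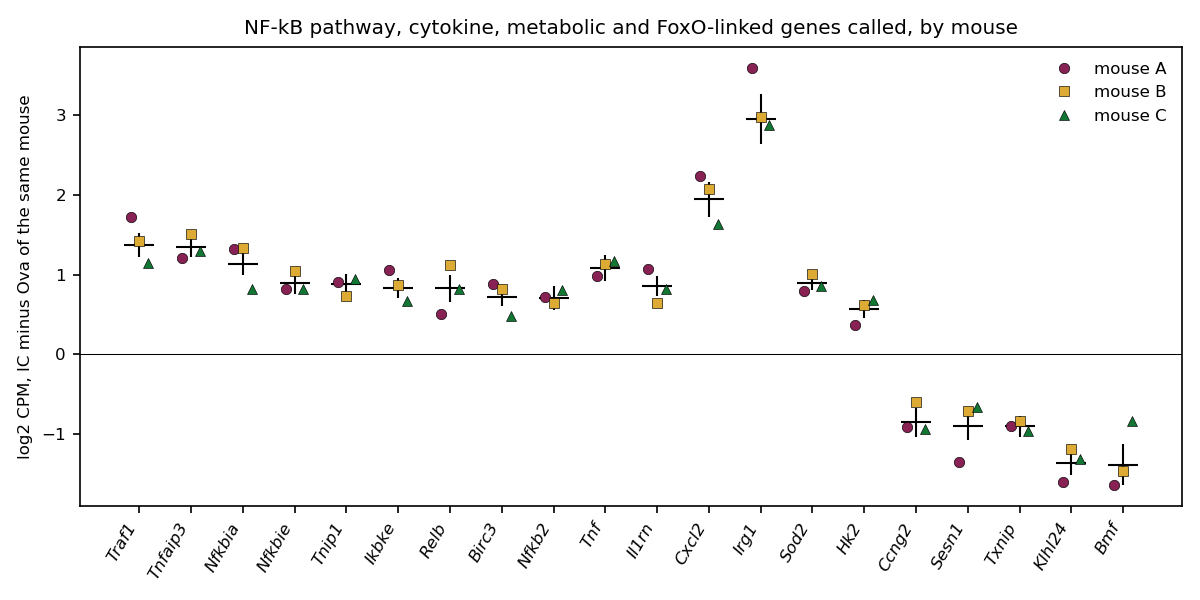
For 20 called genes, the symbols give the difference in log2 CPM between the IC and the Ova library of each mouse, and the black bar with its line gives the fitted log2 fold change with its SE. In each gene all 3 mice lie on the same side of 0, as in every called gene. The mouse farthest from 0 differs between genes, being A in Irg1 and Cxcl2, B in Tnfaip3 and C in Txnip.

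Of the cytokines, the primary inflammatory signal Tnf and the interleukin-1 receptor antagonist Il1rn rose. Tnf was at 38, 47.3 and 53.6 CPM in Ova and at 75.1, 104 and 121 CPM in IC, with the mice in the same order in both groups and no overlap (log2 fold change 1.09, SE 0.16, edgeR adjusted p 0.00576). Il1rn was at 152, 155 and 135 CPM in Ova and 318, 242 and 240 CPM in IC (0.86, SE 0.13, edgeR adjusted p 0.00576). Il1b, the agonist that Il1rn blocks, had 1, 5 and 6 counts in Ova and 23, 16 and 14 in IC, and was not called with or without the block (1.89, SE 0.47, edgeR adjusted p 0.0861 and 0.0787). Its few counts separated the groups in every library, with a wide error. The growth factor Csf1 was not called by edgeR without the block (adjusted p 0.0661) but was with it (0.0354) and by DESeq2 without it (0.023), at 4.11, 2.99 and 4.64 CPM in Ova and 6.14, 7.7 and 9.82 CPM in IC. Of 32 cytokines listed 18 passed the filter, with a median of 0.36 over the 18, and 14 did not pass. Among these 14, Il6 had 0 counts in all 3 Ova libraries and 3, 2 and 2 in IC, Il12b 0 in Ova and 5, 3 and 2 in IC, and Ifnb1, Il12a, Il33 and Csf2 0 in all 6.

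Fc receptors and their signalling chain showed little change at the transcript level. Fcer1g was at 457, 518 and 470 CPM in Ova and at 613, 475 and 436 CPM in IC, and Fcgr1 at 178, 187 and 128 CPM in Ova and 216, 181 and 131 CPM in IC. The mice differed more than the stimulations, and the order of mice in Fcgr1 placed mouse C lowest in both groups. Fcgr3 was at 305, 273 and 269 CPM in Ova and 248, 210 and 248 CPM in IC, without overlap but not called (-0.26, SE 0.13, edgeR adjusted p 0.477). Fcgr4 and the inhibitory Fcgr2b had log2 fold changes of -0.03 (SE 0.41) and 0.01 (SE 0.19), and those of Fcgr4, Fcgr2b, Fcgr1 and Fcer1g changed sign with the libraries included. Per kilobase of exon, Fcer1g was the highest in the Ova libraries (551 ± 36.8 CPM per kb, SD, n = 3), then Fcgr3 (163 ± 11.5), Fcgr1 (63.4 ± 12.3), Fcgr4 (7.76 ± 2.72) and Fcgr2b (2.87 ± 0.55), and these ranges did not overlap between neighbours. The Fcgr2b, Fcgr3 and Fcgr4 genes are related neighbours whose reads could be split by the counting.

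All 38 members of the Fc receptor list passed the filter, with a median of 0.01. In edgeR 0 were called, against 1.22% of all genes tested. An unadjusted p under 0.05 was reached by 7, against 11.7% of all genes tested. DESeq2 called 1 of the 38 lower. With the block 3 were called, Src and Malt1 higher and Rasgrp3 lower, against 2.75% of all genes tested. Src, a kinase that phosphorylates receptor motifs, was at 2.05, 4.91 and 3.56 CPM in Ova and at 7.74, 8.8 and 8.58 CPM in IC (edgeR adjusted p 0.177 without the block and 0.0475 with it). Rasgrp3, an activator of Ras, was at 29.3, 26.8 and 32.6 CPM in Ova and 16.2, 13.9 and 22.2 CPM in IC. Both separated the groups in every library, in opposite directions.

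Sensors of microbes moved in both directions. Clec4e (Mincle), a C-type lectin receptor that also pairs with Fcer1g, was at 67.3, 81.8 and 112 CPM in Ova and at 185, 237 and 337 CPM in IC. The mice kept the order A, B, C in both groups and their log2 differences were nearly equal, 1.46, 1.53 and 1.59. The fitted change was 1.53 (SE 0.25, edgeR adjusted p 0.0122 without the block and 2.52e-05 with it), and it was not called without the Ova library of mouse A (adjusted p 0.052). Tlr2, the receptor of bacterial lipoproteins, rose, from 45.2, 35.3 and 51.7 to 72.8, 101 and 107 CPM. Tlr4, the receptor of endotoxin, fell, from 125, 109 and 117 to 70.2, 81.2 and 78.3 CPM (-0.61, SE 0.11, edgeR adjusted p 0.0182). Of 32 members tested 2 were higher and 1 lower, against 1.22% of all genes tested called, with a median of 0.00. With the block Nlrp3, the inflammasome sensor, was also called higher and Tlr8 lower.

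Feedback on cytokine and kinase signalling and inducible transcription factors contributed fewer calls. Socs3, the inhibitor of receptors that signal through Stat3, had 0, 15 and 19 counts in Ova and 83, 94 and 59 in IC, the 0 in the shallow library. The kinase Pim1 had a log2 fold change of 0.74 (edgeR adjusted p 0.0336), and was not called when the shallow Ova library was left out (adjusted p 0.0843). Of 31 feedback genes tested 2 were higher and 0 lower, against 1.22% of all genes tested called, with a median of 0.21. With the block, where 2.75% of all genes tested were called, Rgs16, Dusp5 and Dusp4 were also higher and Zfp36l1 lower. Of the 46 transcription factors tested 3 were higher and 0 lower, against the same 1.22%, with a median of 0.12. Jdp2, a partner and repressor of AP-1, was at 15.9, 11.7 and 14.8 CPM in Ova and 60.5, 48.2 and 41.9 CPM in IC, the clearest separation among factors (1.86, SE 0.17, edgeR adjusted p 0.000676). Maff, a small Maf protein, and Cebpb, a factor of the acute response, had log2 fold changes of 1.14 and 0.71. Neither was called when the shallow Ova library was left out (adjusted p 0.0894 for Maff and 0.0787 for Cebpb). Maf, a factor of macrophage identity, was not called by edgeR without the block but was called lower with it and, narrowly, by DESeq2 without it (adjusted p 0.0479). It was at 199, 166 and 121 CPM in Ova and 105, 101 and 61 CPM in IC (-0.85, SE 0.26, edgeR adjusted p 0.183 without the block and 0.000558 with it), so the groups did not overlap and the mice kept their order.

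Genes that fell included 5 linked to FoxO factors and to cell rest, out of 56. Klhl24, a ubiquitin ligase adaptor, was at 60.1, 53.9 and 50.3 CPM in Ova and at 19.8, 23.7 and 20.2 CPM in IC. The highest IC value was far below the lowest Ova value. The log2 fold change was -1.36 (SE 0.14, edgeR adjusted p 0.00137). Txnip, which binds thioredoxin and lowers glucose uptake, was at 351, 437 and 445 CPM in Ova and at 188, 246 and 228 CPM in IC (-0.90, SE 0.13, edgeR adjusted p 0.00464). Bmf, a pro-apoptotic BH3 protein, was at 8.22, 11.8 and 7.79 CPM in Ova and at 2.52, 4.18 and 4.29 CPM in IC (-1.38, SE 0.26, edgeR adjusted p 0.0244). The stress-induced inhibitor of mTOR signalling Sesn1 and the unusual cyclin Ccng2 had log2 fold changes of -0.89 and -0.85, and neither was called when the shallow Ova library was left out (adjusted p 0.0535 for Sesn1 and 0.0532 for Ccng2).

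Of 31 members of the FoxO-linked list that passed the filter, 5 were lower and 0 higher, against 1.22% of all genes tested called. A negative value was found in 23 of the 31. The median was -0.31. An unadjusted p under 0.05 was reached by 13, of which 12 were lower and 1 higher, against 11.7% of all genes tested in either direction. With the block 8 were lower, against 2.75% of all genes tested called. The additional ones were Mxd4, a repressor that opposes Myc, Arrdc3 and Tsc22d3. Mxd4 was at 42.6, 25.1 and 19.3 CPM in Ova and at 15.3, 12.7 and 7.63 CPM in IC (-1.21, SE 0.29, edgeR adjusted p 0.0753 without the block and 0.0027 with it). Mouse A was the highest and mouse C the lowest in both groups. Foxo3 itself was at 31.3, 29.8 and 32.2 CPM in Ova and at 25.6, 27 and 22.8 CPM in IC, and was not called (edgeR adjusted p 0.248). The letters GTAAACA that FoxO factors bind were in the promoter windows of 5 of 45 genes called lower (11.1%). They were in 3 of 75 called higher (4.0%) and in 3.08% of all tested. Genes called lower had more windows each (1.58) than those called higher (1.35) or all genes (1.27), and so more sequence in which to match. The falling gene named here with the largest change among those that held them was Ypel3, a gene of growth arrest, whose letters lay at 26 to 32 bases after the start:
Ypel3 (chr7:126776713-126777012, plus strand): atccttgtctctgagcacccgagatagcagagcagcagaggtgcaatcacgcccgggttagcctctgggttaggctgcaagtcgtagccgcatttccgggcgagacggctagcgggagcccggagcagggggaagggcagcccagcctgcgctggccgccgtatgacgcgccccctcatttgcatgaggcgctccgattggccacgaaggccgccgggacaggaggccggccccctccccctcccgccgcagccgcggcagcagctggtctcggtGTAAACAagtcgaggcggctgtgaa
Ypel3 was at 31.8, 21.9 and 16.7 CPM in Ova and 10.3, 10.8 and 8.48 CPM in IC (-1.19, SE 0.24, edgeR adjusted p 0.0331). Sesn1 and Txnip were the other falling genes named here whose windows held these letters, and the rising genes Slc7a11 and Pim1 held them as well.

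**Figure D4:**
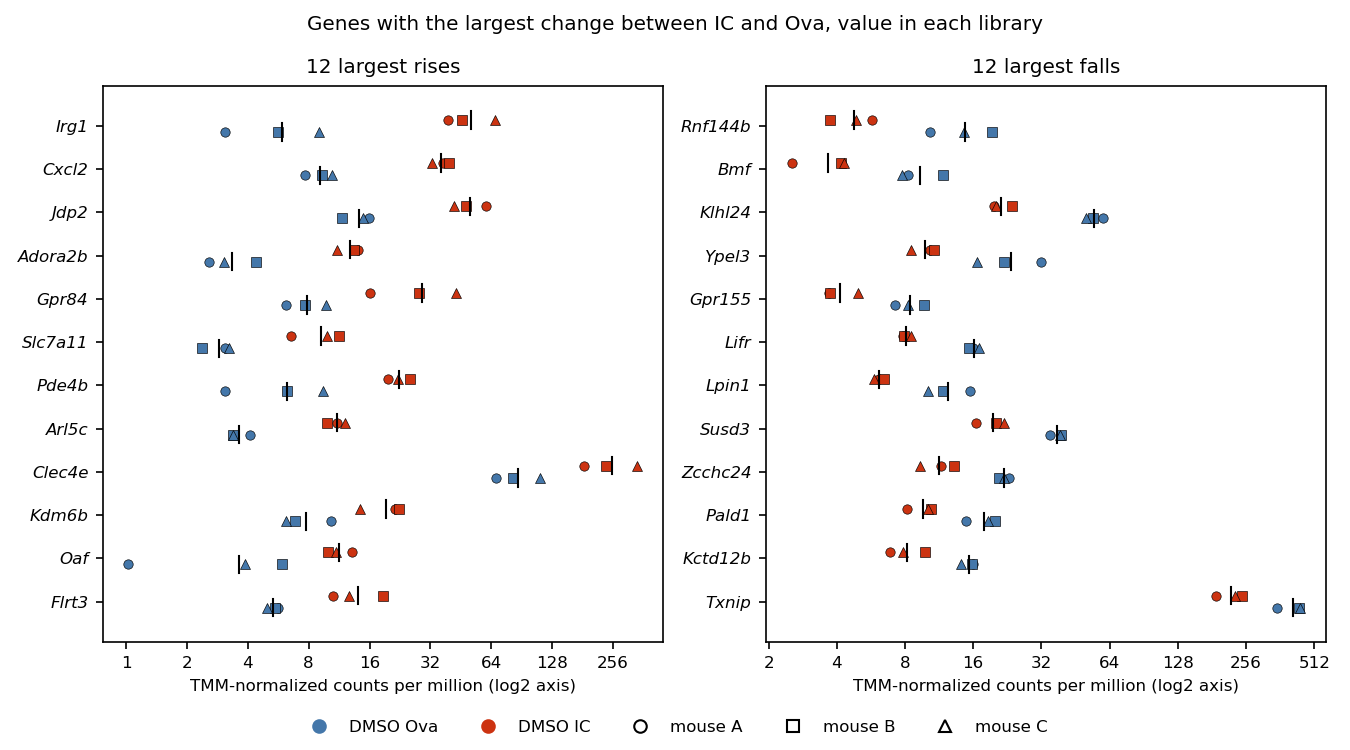
Values in each library, in CPM on a log2 axis, for the 24 called genes that changed most (12 upward, 12 downward) at a mean of at least 50 counts, with the mean of each group as a black tick. The IC and Ova libraries do not overlap in any of the 24 genes, and among the rising genes the Ova library of mouse A is the lowest of its group in Irg1, Cxcl2, Adora2b, Gpr84, Pde4b, Clec4e and Oaf.

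By size, the other large rises with a mean of at least 50 counts came from receptors, signal enzymes and a chromatin enzyme. Adora2b, the low-affinity adenosine receptor, was at 2.57, 4.37 and 3.07 CPM in Ova and 14, 13.4 and 11.1 CPM in IC (1.85, SE 0.26, edgeR adjusted p 0.00464). Gpr84, a receptor for medium-chain fatty acids, was at 6.16, 7.67 and 9.78 CPM in Ova and 16.2, 27.9 and 42.7 CPM in IC. The Gpr84 values spread nearly as widely within IC as between the groups, and 9 of the 12 fits that left out 1 library did not call it. Pde4b, a phosphodiesterase that degrades cyclic AMP, was at 3.08, 6.29 and 9.45 CPM in Ova and 19.8, 25.4 and 22.2 CPM in IC (1.69, SE 0.27, edgeR adjusted p 0.0103). Kdm6b, the demethylase of lysine 27 of histone H3, was at 10.3, 6.82 and 6.22 CPM in Ova and 21.4, 22.4 and 14.3 CPM in IC. The others were Arl5c, Oaf and Flrt3, with log2 fold changes of 1.66, 1.41 and 1.39, and Oaf rested on 2 counts in the Ova library of mouse A.

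Among called genes with a mean of at least 50 counts, the largest fall was that of Rnf144b, a ubiquitin ligase, at 10.3, 19.3 and 14.6 CPM in Ova and 5.72, 3.74 and 4.86 CPM in IC (-1.68, SE 0.25, edgeR adjusted p 0.00576). Lifr, the receptor of leukaemia inhibitory factor, had little spread, at 15.9, 15.3 and 17 CPM in Ova and 7.83, 7.92 and 8.48 CPM in IC (-0.99, SE 0.11, edgeR adjusted p 0.00142). Lpin1, a phosphatidate phosphatase of lipid synthesis, was at 15.4, 11.8 and 10.1 CPM in Ova and 6.14, 6.49 and 5.81 CPM in IC. The IC values of these 2 genes were about level across mice. Gpr155, Susd3, Zcchc24, Pald1 and Kctd12b lay between -1.06 and -0.90. Of the 24 genes named by size, 10 were called in each of the 12 fits without 1 library, 21 without the Ova library of mouse A, 24 with the block and 0 without mouse B, and none changed sign.

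Ligands and membrane proteins of contact with other cells were among the called genes of several lists. Jag1, a ligand of Notch, was at 112, 117 and 102 CPM in Ova and at 248, 306 and 269 CPM in IC (1.31, SE 0.16, edgeR adjusted p 0.0017). It was the 1 called of 22 Notch pathway members tested (median 0.04), against 1.22% of all genes tested. The receptor Notch2 was not called (0.36, SE 0.16, edgeR adjusted p 0.415). Icam1, the ligand of leukocyte integrins, was at 75, 93.2 and 95.8 CPM in Ova and 166, 229 and 232 CPM in IC. Cd274 (PD-L1), which restrains T cells, was at 15.4, 13 and 12.7 CPM in Ova and 29.5, 31.7 and 21.7 CPM in IC. These were the 2 called of 22 genes of antigen presentation and costimulation tested (0 lower, median 0.12), against the same 1.22%. The class II genes among the 22 stayed between -0.16 and 0.18. Ciita and Vcam1 of this list did not pass the filter. Ciita had 0, 1 and 1 counts in Ova and 5, 10 and 7 in IC, and Vcam1 0, 4 and 5 in Ova and 14, 8 and 9 in IC. Among 34 genes of adhesion and migration Marcksl1, an actin-binding substrate of protein kinase C, rose (1.00, SE 0.12) and the laminin-binding integrin Itga6 fell. Itga6 was at 445, 451 and 439 CPM in Ova and 307, 340 and 322 CPM in IC, a modest fall with little spread (-0.46, SE 0.08, edgeR adjusted p 0.0226).

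With the block the chemokine receptors Cxcr4 and Ccr2 and the oxysterol receptor Gpr183 were also called lower, and Mmp14, Mmp13 and Plaur, which act in pericellular proteolysis, higher. Cxcr4 was at 42.6, 57 and 37.1 CPM in Ova and at 18.1, 26 and 19.8 CPM in IC (-1.11, SE 0.29, edgeR adjusted p 0.108 without the block and 0.0119 with it). Mmp14 was at 10.3, 6.59 and 2.16 CPM in Ova and at 20.2, 18.6 and 8.77 CPM in IC, so that the IC library of mouse C lay below the Ova library of mouse A although each mouse was higher with IC.

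Of 30 genes of ribosome production in the nucleolus that were tested, 27 had a positive value, with a median of 0.39. Of the 30, 3 were called higher and 0 lower (Rrp9, Gnl3 and Nop2), against 1.22% of all genes tested called. At an unadjusted p under 0.05, 15 were higher, and 11.7% of all genes tested had such a p in either direction. Gnl3 (nucleostemin) was at 51.9, 41.9 and 48.7 CPM in Ova and 98, 68.8 and 68.5 CPM in IC, and Nop2, a methyltransferase of ribosomal RNA, at 65.7, 59.2 and 59.8 CPM in Ova and 95.2, 74.9 and 87.4 CPM in IC. Mouse A, the mouse with the high share of Rn45s in Ova, was the highest of the IC group in both genes. The part of this in the result was not tested, while without the Ova library of mouse A 5 members were called higher. Myc, which drives this group in many cells, was at 64.7, 61.5 and 65.7 CPM in Ova and 127, 94.1 and 97.7 CPM in IC and was not called with or without the block (0.73, SE 0.23, edgeR adjusted p 0.173 and 0.0668).

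The death receptor and apoptosis list had a median of 0.04. Of its 28 members 2 were higher and 0 lower, against 1.22% of all genes tested called. They were Cflar, the inhibitor of caspase 8, at 174, 151 and 158 CPM in Ova and 258, 267 and 232 CPM in IC (0.66, SE 0.09, edgeR adjusted p 0.00464), and the death receptor Fas, with 3, 17 and 17 counts in Ova and 55, 33 and 50 in IC. Both the receptor and an inhibitor of its signal were thus higher in each mouse.

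Several programmes that the list set covered had no called member. Over all genes tested, 1.22% were called by edgeR and 11.7% had an unadjusted p under 0.05. Of 35 interferon-stimulated genes 0 were called by edgeR, by edgeR with the block or by DESeq2, with 3 at an unadjusted p under 0.05, a median of 0.03 and a range from -0.33 (Ifi47) to 0.93 (Gbp5). Of 35 lysosome and phagosome genes 0 were called, of which 3 had an unadjusted p under 0.05, with a median of 0.06, and DESeq2 called 1 higher. With the block Sqstm1, an autophagy receptor, was called higher and Ncf1, a subunit of the phagocyte oxidase, lower. Of 29 sterol and fatty acid genes 0 were called by edgeR and by DESeq2, of which 6 had an unadjusted p under 0.05, with a median of -0.07, and with the block Hmgcs1, an enzyme of sterol synthesis, was called lower. Of 33 cell cycle genes 0 were called in edgeR, with 1 at an unadjusted p under 0.05, and DESeq2 called 1 higher. The cell cycle list had a median of -0.20 with 28 of 33 values below 0. Mki67, a marker of dividing cells, was at 248, 225 and 499 CPM in Ova and 200, 136 and 359 CPM in IC. It was lower with IC in each mouse, while the mice differed widely. Only the fit of the 6 DMSO libraries alone with the block called it. With the block Cdk6 was called higher and E2f2 lower.

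**Figure D5:**
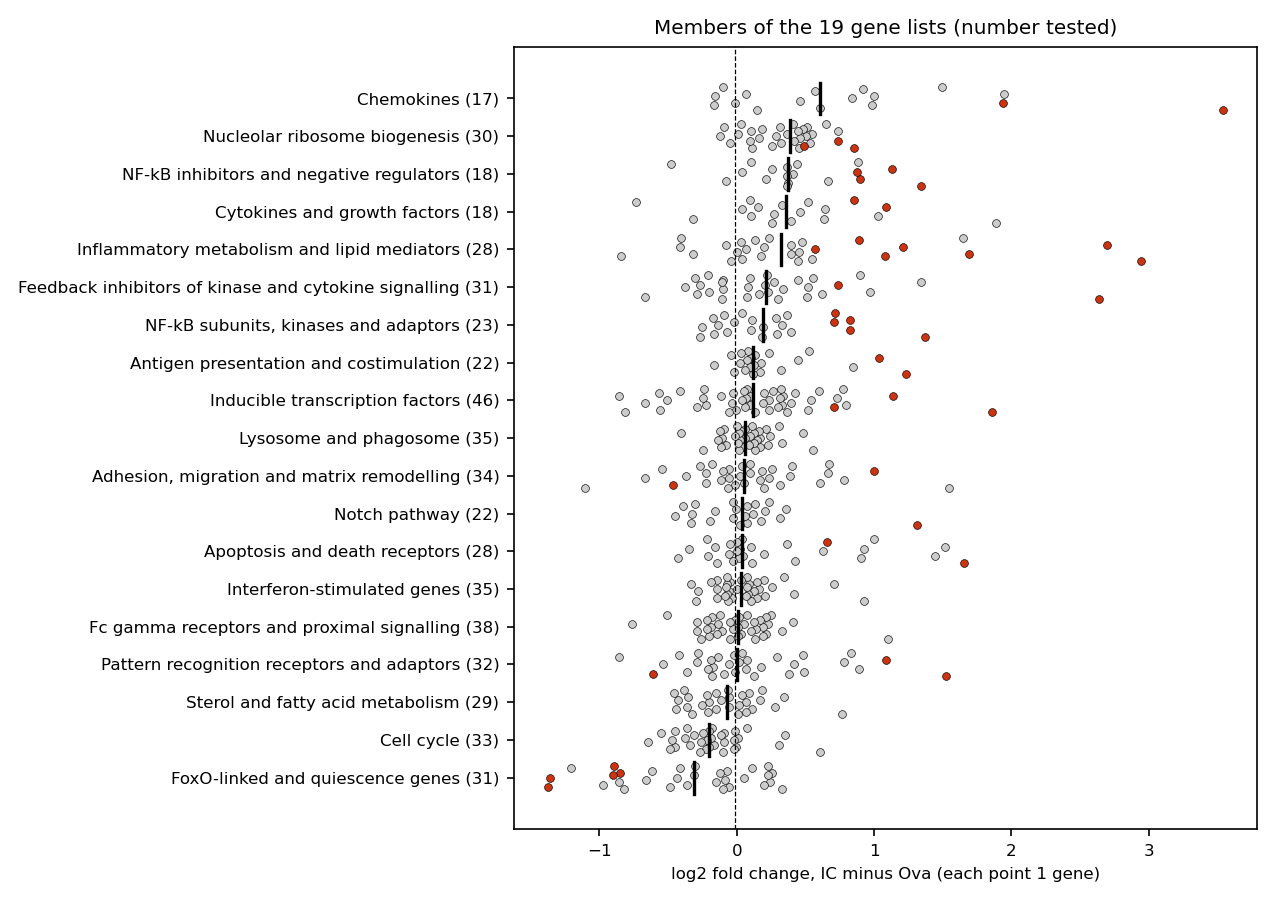
Each point is the log2 fold change (IC minus Ova) of 1 member of a gene list, red where the gene was called over all 11468 genes and grey where it was not, with the median of the list as a black bar and the median of all genes as a dashed line. Lists are ordered by their median, from chemokines (0.61) to FoxO-linked genes (-0.31).

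The response was set beside that of the same mice in iBET, to ask whether any gene responded differently. The interaction called 0 of 11468 genes in edgeR (0%), where 292 (2.55%) had an unadjusted p under 0.05. DESeq2 called 4, and 7 with the block. All 24 genes named by size moved in the same direction in iBET, 20 of them by less, but they were chosen for their size in DMSO. Jdp2 changed by 1.86 in DMSO and 0.61 in iBET, Jag1 by 1.31 and 0.35, and Klhl24 by -1.36 and -0.58, while Tnfaip3 changed by 1.34 and 1.48. In none of these 4 did the difference between arms pass the adjusted threshold in edgeR.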

How the data were processed

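RNA of 12 BMDM libraries (4 groups of 3 mice) was sequenced on an Illumina instrument after preparation with a SMARTer pico kit. Per the labels and the study's methods, the authors trimmed reads with Trim Galore, aligned them with HISAT2 to mm10 and counted them per gene with featureCounts, and the deposited values are raw counts of 24421 symbols. A second deposited table holds a normalized signal, which is these counts divided by 1 size factor per library: 100% of its values came back as whole reads (tolerance 1e-06), so it served only as an alternative. The strand setting, annotation and treatment of multimapping reads are not given in the sources used here. The labels have drug and stimulus added together while the methods have the drug first, and the labels have the cells sorted into lysis buffer while the methods have them lysed in culture.

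Counts were fitted with edgeR 4.0.16 (R 4.3.3) by the quasi-likelihood test with TMM scaling, filterByExpr at 10 counts, all 12 libraries and 1 term per group, with Benjamini-Hochberg adjustment over 11468 genes and a threshold of 0.05. The SE is that of the log2 fold change. Differences within a mouse used a prior count of 2. Depth was read per library, and floors and intervals cover counting error only. The labels tie same-numbered libraries to 1 mouse, and in the DMSO libraries the deviations of same-mouse pairs from their group means correlated at 0.351 to 0.542, against -0.499 to 0.105 between mice. Over all 12 libraries the ranges overlapped, at -0.0725 to 0.542 (median 0.263) within a mouse and -0.499 to 0.271 (median -0.134) between mice. The iBET Ova library of mouse A correlated with the DMSO Ova and IC libraries of mouse A at -0.0506 and -0.0725. With those of mouse B it reached 0.234 and 0.271. For the iBET Ova library of mouse B the values were -0.0566 and -0.00682 with mouse B and 0.178 and 0.258 with mouse A. With the iBET IC library of its own mouse each was positive, at 0.219 and 0.0918. The block followed the labels, and the labelled mouse of these libraries was not tested. Deviations from a group mean cancel out within the group, so the same-mouse and between-mouse values are not independent. Mouse as a block was the alternative set beside the main test, and DESeq2 1.42.0, limma 3.58.1, 1 surrogate variable (sva 3.50.0), other filters and scalings and leaving out libraries or mice were others. The sample-weighted limma fit, the fit on recovered reads and the list counts from the 6 DMSO libraries alone were chosen after seeing the data. The test was checked on simulated data.

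Genes were named by 2 rules: the 12 largest rises and 12 largest falls among called genes with a mean of at least 50 counts and the same direction in 3 of 3 mice, and each called member of 19 gene lists with the members that define a list. Any other gene, those not called without the block included, was chosen after its values were seen. A few list and marker genes are not reported here. The members and lists were chosen with earlier results of these data known. Exon lengths and overlaps came from GENCODE vM21 (98.5% of symbols matched) and promoters from RefSeq.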

Additional observations from a re-analysis of the deposited data

How the results depend on the processing

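With the replicate block, the pairing by mouse, edgeR called 315 genes in place of 140. DESeq2 called 266, and 437 with the block. With 1 surrogate variable 435 were called, and 270 with sample weights in limma. The 6 DMSO libraries alone gave 5 without and 829 with the block, and without the Ova library of mouse A the block gave 223. A threshold of 0.01 left 48 genes and a fold of at least 2 left 45. Leaving out 1 library gave 45 (Ova, mouse B) to 123 genes (Ova, mouse A), and leaving out mouse B or C gave 0 or 10. For the interaction DESeq2 called 4 genes, and 7 with the block, against 0 in edgeR, and leaving out 1 library gave 0 to 1. Only genes that were not called changed sign. The log2 fold change of Fcgr1 was -0.054 without the Ova library of mouse A with the block, at -0.0084 without mouse A, and ranged from -0.064 to 0.28 without 1 library. In the same fits the log2 fold change of Fcer1g was -0.14 and -0.11, ranged from -0.078 to 0.17, and was -0.058 with sample weights. In limma on the normalized signal the log2 fold change of Fcgr2b was -0.034, and it was -0.097 with mouse B left out and -0.16 with mouse C left out, and ranged from -0.16 to 0.16. With a surrogate variable the log2 fold change of Fcgr4 was 0.0061 and ranged from -0.28 to 0.13. Without the Ova library of mouse A, with the block, the log2 fold change of Rn45s was 1.35, and it was 0.85 without mouse A and ranged from -5.05 to 1.31. Likewise the log2 fold change of Lars2 was 1.75 and 1.14 in these fits, 0.12 with a surrogate variable and 0.23 with sample weights, and ranged from -6.33 to 2.08. The cause of these changes was not tested. Of 3739 values of single genes over all settings, 2968 kept direction and side of the threshold, 526 lost the call, 220 gained it and 25 changed sign. Of 76 list counts compared, 36 rose and 4 fell by over 1.5 times. The shallow Ova library of mouse A limits genes of low level most.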

Other observations

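Other called genes, chosen after their values were seen, included regulators of actin, which moved in both directions. Dock8, an activator of Cdc42, was at 274, 272 and 266 CPM in Ova and 204, 196 and 193 CPM in IC (log2 fold change -0.45, edgeR adjusted p 0.0234). Fgd4, another activator of Cdc42, was at 196, 197 and 192 CPM in Ova and 108, 126 and 119 CPM in IC (-0.73, edgeR adjusted p 0.00576). Ssh2, a phosphatase of cofilin, was at 104, 83.4 and 92.4 CPM in Ova and 52.4, 53.3 and 55 CPM in IC (-0.79, edgeR adjusted p 0.00234). The groups did not overlap in any of the 3 genes, and Arhgap17, Mical1 and Hmha1 were also called lower, at -0.65, -0.74 and -0.52, while Vasp, which promotes actin filament growth, was called higher, at 0.55. With the shallow Ova library left out, neither Mical1 (adjusted p 0.0636) nor Vasp (adjusted p 0.0874) was called. The called gene with the largest fall, Fam214a, was at 6.16, 6.29 and 5.89 CPM in Ova and 2.44, 1.21 and 1.81 CPM in IC (-1.71, edgeR adjusted p 0.00464), and was below the mean of 50 counts set for naming by size.

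Receptors coupled to G proteins changed in both directions. Lpar1, a receptor of lysophosphatidic acid, was at 7.19, 8.43 and 8.7 CPM in Ova and 19.1, 19.3 and 17.9 CPM in IC (1.18, edgeR adjusted p 0.00464). S1pr1, a receptor of sphingosine 1-phosphate, was at 47.3, 60.3 and 51.4 CPM in Ova and 30, 33.9 and 27.5 CPM in IC (-0.81, edgeR adjusted p 0.0182). The IC libraries lay above all Ova libraries for the former and below them for the latter. Among genes with few counts, Mycl, a relative of Myc, and Olr1, a scavenger receptor for oxidized lipoprotein, were higher, with log2 fold changes of 2.33 and 2.03.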
